A study of Danio rerio with 7 samples.

Results

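The genes hand2, bhlhe40, max, mxi1 and cebpd code for 5 transcription factors, and each matched 1 row of the 16394 gene rows in the 7 deposited tables. They were chosen because of how their transcripts stood between hmga1a-/- and hmga1a+/+ zebrafish in these same data, so their values between genotypes are given below as a description, without a test. The cells came from ventricles of adult fish 7 days after cryoinjury, a freezing lesion of the heart wall. All fish carried Tg(nppa:mCitrine), a reporter driven by the promoter of the natriuretic peptide gene nppa, and single cells bright for the reporter were sorted into plates of 384 wells. The groups were 3 plates from hmga1a+/+ fish, here called wild type, and 4 plates from hmga1a-/- fish, here called mutant. The product of hmga1a is a high mobility group protein that binds AT-rich DNA in chromatin. The labels name 12 hearts per genotype and do not say which allele was used, whether hearts were pooled or which plate holds which fish. The p-values below therefore rest on the variation from plate to plate, and part of that may be technical. Plates are numbered in their order of deposit, and equal numbers pair no plates. Every plate carries the same set of 384 well barcodes, so shared barcodes say nothing about shared cells.

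HAND2 is a basic helix-loop-helix factor that the vertebrate embryo, zebrafish included, needs to build its heart ventricle. MAX is the obligate partner of the MYC proteins, and it also pairs with MXI1, a member of the MXD family, whose dimers with MAX occupy the same E-box DNA elements and repress them in mammalian cells. BHLHE40 is an E-box repressor that in mammals is part of the circadian clock and is induced by low oxygen. CEBPD is a leucine zipper factor of the C/EBP family that in mammals is induced by inflammatory signals.

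Of 2688 wells, 1033 held at least 1000 transcripts outside spike-ins and mitochondrially encoded genes and were kept. The plates held 310267 to 808070 transcripts in all, and the median kept well held 1650 to 2672. Mitochondrial transcripts made up a median of 2.91% and 2.69% in the kept wells of mutant plates 1 and 2 and 1.20 to 1.40% in the other 5 plates, and so within run 1 of the sequencer both mutant plates stood above the single wild-type plate. Whether this has a part in the differences of run 1 below was not tested. Of the kept wells, 905 were called cardiomyocyte-like (456 wild-type and 449 mutant). They came from clusters of at least 15 wells with a high share of cardiomyocyte marker transcripts, and the others stayed unnamed (43 and 85). Unnamed clusters 7.1, 7.3, 7.4 and 7.5 had median marker shares of 18.6%, 19.6%, 21.8% and 19.2%, above the 17.4% of cluster 8 in the class. Only their size, 14, 8, 7 and 7 wells, kept them out, and 12, 3, 7 and 6 of those wells were mutant. Cardiomyocyte-like wells made up 87.9%, 93.1% and 91.4% of the wells kept from each wild-type plate, and 71.2%, 78.8%, 90.3% and 91.5% for mutant plates 1 to 4. In cardiomyocyte-like wells the 24 matched cardiomyocyte marker genes summed to 2350 to 2429 of 10000 transcripts in wild-type plates and to 1954 to 2236 in mutant plates, which do not overlap. Their part in the results below was not tested. The labels name the source as cardiomyocytes. Matched markers of endothelial (6), fibroblast and epicardial (9), leukocyte (10), red blood (2) and thrombocyte (4) cells summed, each list, to at most 0.537 of 10000 transcripts in the class in any plate, with tek and ecscr (endothelium), TBX18, POSTN and ALDH1A2 (fibroblasts and epicardium) and c1qa, c1qb and SPI1 (leukocytes) at 0 in all 7 plates. Run 1 of the sequencer held wild-type plate 1 and mutant plates 1 and 2, and run 2 held the other 4 plates. The hmga1a transcript itself stood at 52.4, 130.2 and 90.8 CPM in wild-type plates and at 60.6, 46.4, 11.3 and 40.1 CPM in mutant plates, so that the groups overlap at wild-type plate 1. Here and below, CPM are transcripts summed over the cardiomyocyte-like wells of a plate and brought to a common library total with TMM factors. Tags come from the 3' end and the labels leave the altered part of hmga1a unnamed, so this level does not settle whether function was lost.

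In cardiomyocyte-like wells, all 5 transcription factor genes had a lower mean in mutant than in wild-type plates. The mutant plates lay below every wild-type plate for hand2, max and mxi1, and the groups overlapped for bhlhe40 and cebpd. Such a full separation downwards was seen for 6.59% of the 2110 genes tested. All 5 genes passed the filter on low counts, but hand2, max and bhlhe40 would not have passed on their mutant plates alone. Since the choice of these genes rests on this contrast, nothing is read from these counts.

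The cardiac factor gene hand2 (ENSDARG00000008305) was the most different of the 5 in fold. It stood at 192.2, 43.9 and 61.1 CPM in wild-type plates 1 to 3 and at 15.1, 15.5, 27.1 and 15.4 CPM in mutant plates 1 to 4. Wild-type plate 1 stood far above the rest, and mutant plate 3 was the highest of its group. The means were 99.1 ± 81.1 CPM (SD, n = 3) and 18.3 ± 5.89 CPM (SD, n = 4). The fitted log2 fold change was -2.17 (SE 0.48). Of the 2110 genes, 0.332% had a lower fold change. Since hand2 was chosen from this contrast, that rank is a description and no measure of chance. These levels rest on 33, 28 and 35 transcripts in the wild-type plates and on 4, 3, 12 and 5 in the mutant plates. A transcript was found in 57 of 456 wild-type and 13 of 449 mutant wells. Most wild-type wells with hand2 held a single transcript, 33 of 57, and the highest well held 5. Wells with hand2 were deeper than wells without it, with medians of 3176 and 2348 transcripts in wild type and 2797 and 2193 in mutant. Unthinned, 14.9% of wells in wild-type plate 1 held the transcript (exact binomial 95% interval 8.20 to 24.2), and 3.798% in mutant plate 3 (1.41 to 8.08). These intervals do not overlap, but those of other plate pairs do. Wild-type plate 2, at 10.6% (6.62 to 15.95), overlapped mutant plate 3. Mutant plate 1, at 3.19% (0.663 to 9.04), overlapped wild-type plate 1. All these intervals cover counting error only, so no separation of the genotypes is read from them. Without wild-type plate 1 the fold change was -1.27. The difference of mean log2(CPM + 1) was -3.57 in run 1, which has a single wild-type plate, and -1.30 in run 2.

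The MYC partner gene max (ENSDARG00000024844) also stood highest in wild-type plate 1. It stood at 128.1, 51.8 and 40.2 CPM in wild-type plates and at 34.1, 15.5, 18.1 and 12.3 CPM in mutant plates. The other wild-type plates lay much lower, and mutant plate 1 came closest to the wild-type range. The log2 fold change was -1.87 (SE 0.47), and -1.57 without wild-type plate 1. Run 1 gave a difference of -2.43 and run 2 gave -1.55. The transcripts behind it were 22, 33 and 23 in wild-type and 9, 3, 8 and 4 in mutant plates, in 46 and 14 wells.

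The gene of its repressive partner, mxi1 (ENSDARG00000040884), was the best covered and the most even of the 5. It stood at 203.8, 180.4 and 235.8 CPM in wild-type plates and at 117.3, 118.6, 133.3 and 98.7 CPM in mutant plates. The lowest wild-type plate, at 180.4 CPM, stood above the highest mutant plate, at 133.3 CPM, and no plate stood far from its group. The means were 206.7 ± 27.8 CPM (SD, n = 3) and 116.98 ± 14.2 CPM (SD, n = 4), with a log2 fold change of -0.81 (SE 0.24). In this class both runs gave nearly the same difference, -0.78 and -0.84, while all kept wells gave -0.36 for run 1 and -0.91 for run 2. Each mutant plate held 23 to 59 of its transcripts, and wild-type plate 1, the thinnest of its group, held 35.

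For the clock repressor gene bhlhe40 (ENSDARG00000004060) the gap between genotypes in cardiomyocyte-like wells was seen mainly in run 2, a difference between runs that was not tested. It stood at 64.1, 62.7 and 40.2 CPM in wild-type plates and at 45.4, 61.9, 6.78 and 15.4 CPM in mutant plates. Both low plates were mutant plates of run 2, while the mutant plates of run 1 lay within the wild-type range. The log2 fold change was -1.38 (SE 0.52). Within run 1 the difference was -0.27, and within run 2 it was -2.18. Over all kept wells these differences were -1.05 and -1.70, so the value of run 1 depends on the choice of wells. In wild-type plate 1, 3 unnamed wells held 37 bhlhe40 transcripts, where its cardiomyocyte-like wells held 11. The unnamed wells of mutant plates 1 and 2 held 21 and 16. The fold change was -2.26 without wild-type plate 1 and -0.92 without mutant plate 3. The counts were 11, 40 and 23 transcripts against 12, 12, 3 and 5.

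For the C/EBP gene cebpd (ENSDARG00000087303) the plates stood at 145.6, 45.5 and 92.6 CPM in wild type and at 64.3, 56.7, 38.4 and 61.7 CPM in mutant. Wild-type plate 2 lay below 3 of the 4 mutant plates. The difference of mean log2(CPM + 1) was -1.26 in run 1 and -0.41 in run 2. The log2 fold change was -0.77 (SE 0.37), and -0.50 without wild-type plate 1. It rests on 25, 29 and 53 transcripts in wild-type and 17, 11, 17 and 20 in mutant plates.

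**Figure D1:**
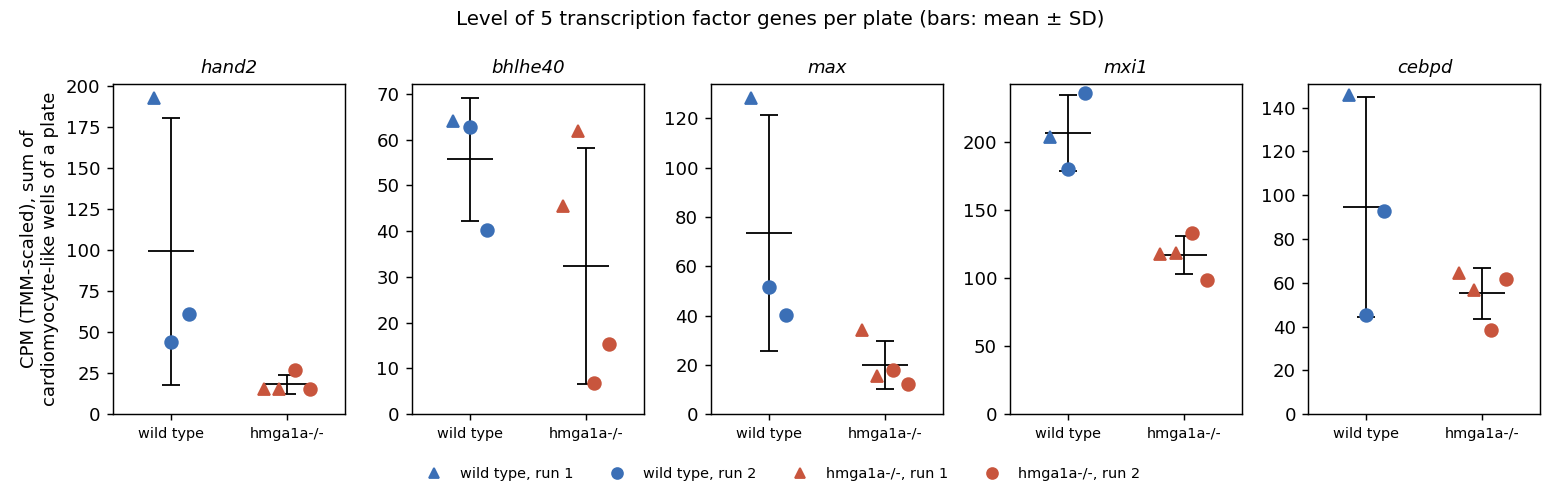
Level of each gene in CPM (TMM-scaled, linear axis from 0) in the sums over cardiomyocyte-like wells, 1 point per plate, with the mean and SD of each genotype; triangles are run 1 and circles run 2. The mutant points of hand2, max and mxi1 lie below every wild-type point, and those of bhlhe40 and cebpd overlap with wild type.

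The plot of CPM by plate shows how far wild-type plate 1 sets the wild-type means of hand2, max and cebpd. That plate had the lowest median depth, 1650 transcripts per kept well, and without it the fold changes were those given above, nearer to 0 for all 3 genes.

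Wells were next thinned to 1000 transcripts each, so that a share of wells with a transcript does not follow depth. No kept well was too shallow to thin. After thinning, hand2 was found in 10.3%, 3.19% and 6.08% of cardiomyocyte-like wells in wild-type plates and in 1.06%, 1.49%, 2.53% and 1.54% in mutant plates. Every mutant plate was lower. The share of wells with mxi1 was 14.9%, 16.5% and 16.6% in wild type and 6.38%, 13.4%, 11.4% and 11.5% in mutant, without overlap. How many of all genes separate in this way after thinning was not computed, so nothing is read from either separation. For max, wild-type plate 3 (2.21%) lay below mutant plate 2 (2.99%), so the shares overlapped where the CPM did not. Means over plates were 5.63% ± 5.10 (SD, n = 3) and 1.82% ± 0.990 (SD, n = 4) for max, 3.87% ± 0.976 and 2.21% ± 2.09 for bhlhe40, and 6.54% ± 3.60 and 4.89% ± 1.79 for cebpd. Without thinning the mean shares were 12.9% and 2.697% for hand2, 10.9% and 3.47% for max, 27.7% and 19.8% for mxi1, 8.78% and 5.96% for bhlhe40, and 12.0% and 8.14% for cebpd. The 67 unnamed wells of cluster 6 had a median of 1920 transcripts, against 2388 and 2210 in wild-type and mutant cardiomyocyte-like wells. They held 1 transcript each of hand2, mxi1 and cebpd and none of bhlhe40 or max. Those wells held a median of 32.2% mitochondrial transcripts and few cardiomyocyte marker transcripts. Whether they held cells or free RNA was not tested.

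**Figure D2:**
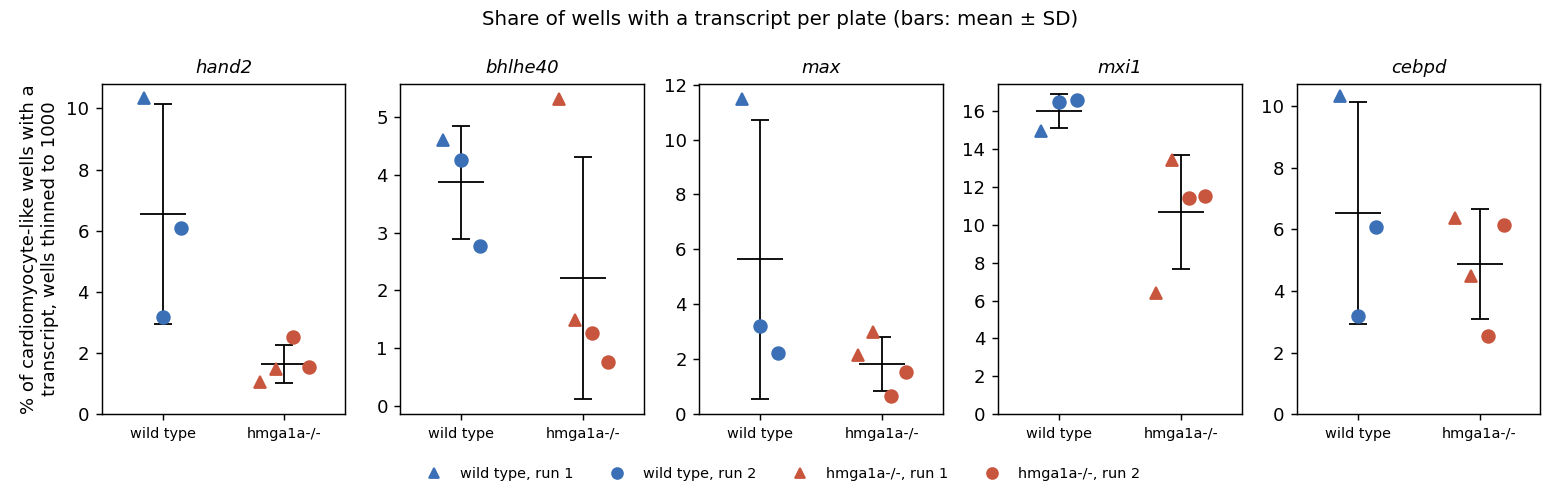
Percentage of cardiomyocyte-like wells with a transcript of each gene after every well was thinned to 1000 transcripts, 1 point per plate, with the mean and SD of each genotype; triangles are run 1 and circles run 2. The mutant plates lie below the wild-type plates for hand2 and mxi1, and the groups overlap for max, bhlhe40 and cebpd.

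At least 1 of the 5 transcripts was found in 32.99% ± 8.42 of thinned wild-type wells (SD, n = 3) and in 19.3% ± 1.34 of thinned mutant wells (SD, n = 4). At least 2 of the 5 genes were found together in 5.21% and 1.93%. Joint detection of most pairs was close to the product of their single shares. The exceptions in size were bhlhe40 with cebpd, found together in 7 of 905 thinned wells where the product of shares gives 1.45, and hand2 with mxi1, found together in 1 where the product gives 5.04. These numbers are small and are given as a description. They also rest on a single random draw of the thinning. In unthinned wells the same pairs were found together in 22 and 25 wells. No product of shares was computed for unthinned wells, so whether either exception holds there was not tested.

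Cardiomyocyte-like wells fell into clusters that the genotypes filled unequally, so the 5 genes were also read cluster by cluster. Cluster 5 held 89 wild-type and 20 mutant wells, and cluster 1 held mostly wild-type wells, with 50 mutant ones. Clusters 0, 2 and 3 held more mutant wells than their 79, 58 and 50 wild-type ones. Mutant plate 4 gave 53 of the 87 mutant wells in cluster 3, and mutant plates 1 to 3 gave 10, 3 and 21. Cluster 5 had the most mxi1, 2.79 per 10000 transcripts, and also the most cebpd (1.73), bhlhe40 (1.06) and max (0.881) of the 7 clusters in the class. The hand2 level was highest in the 27 wells of cluster 8 (0.994), followed by cluster 5 (0.793). That value of cluster 8 rests on 8 transcripts in 3 wells, all wild type. Since the clusters were built from all genes, these levels are a description. Within cluster 5, mxi1 stood at 2.96 per 10000 in wild-type and 1.70 in mutant wells, and hand2 at 0.886 and 0.212. The mutant hand2 value there is 1 transcript in 20 wells. Across the other large clusters hand2 was lower in mutant wells in clusters 1, 2, 3 and 4 and nearly level in cluster 0 (0.278 and 0.298), and mxi1 was lower in mutant wells in all 7 clusters but cluster 4 (0.526 and 1.24). For cebpd the direction varied, from 1.296 wild-type against 0.131 mutant in cluster 3 to 0.378 against 0.652 in cluster 0. The cluster 3 values rest on 19 and 3 transcripts, with most mutant wells there from mutant plate 4. In cluster 5 cebpd stood at 1.70 in wild-type and 1.91 in mutant wells. The direction also varied for bhlhe40. It was higher in mutant wells in clusters 2, 4, 5 and 8 and lower in clusters 0, 1 and 3. In clusters 2, 4 and 8 its values rest on 2, 1 and 2 wild-type and 4, 2 and 2 mutant transcripts. In cluster 5 bhlhe40 stood at 1.02 in wild-type and 1.27 in mutant wells. The max level was lower in mutant wells in all 7 clusters. Its mutant values rest on 13 transcripts in cluster 0, 6 in cluster 3 and 0 to 2 in each of the others. In cluster 8 the wild-type value is 2 transcripts in 1 well. Since max was chosen from this contrast, the shared direction is a description. These cluster values pool wells of several plates and carry no replicate error.

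The unnamed wells held many transcripts of these genes. They held 57 hand2 transcripts in wild type, where the cardiomyocyte-like wells held 96, and 34 in mutant, where the cardiomyocyte-like wells held 24, so the class left out a large part of them. A few wells carried these sums. The highest unnamed well of wild-type plates 1 to 3 held 18, 9 and 21 hand2 transcripts, and 1 well of mutant plate 2 held 14. Cluster 7.0, with 16 wells and with krt18a.1, krt8 and egr1 among its leading genes, held 65 hand2, 53 bhlhe40 and 59 max transcripts. Its median well held 6758 transcripts, and it took 5 wild-type and 11 mutant wells. Of the 65 max transcripts in unnamed mutant wells, 27 came from mutant plate 1 and 36 from mutant plate 2, with 18 in a single well on each. With all kept wells, the log2 fold changes were -1.72 for hand2, -1.31 for bhlhe40, -1.01 for max, -0.71 for mxi1 and -0.43 for cebpd, and only for mxi1 did the groups not overlap. Among the 2798 genes tested over all kept wells, 4.36% had every mutant plate below every wild-type plate.

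**Figure D3:**
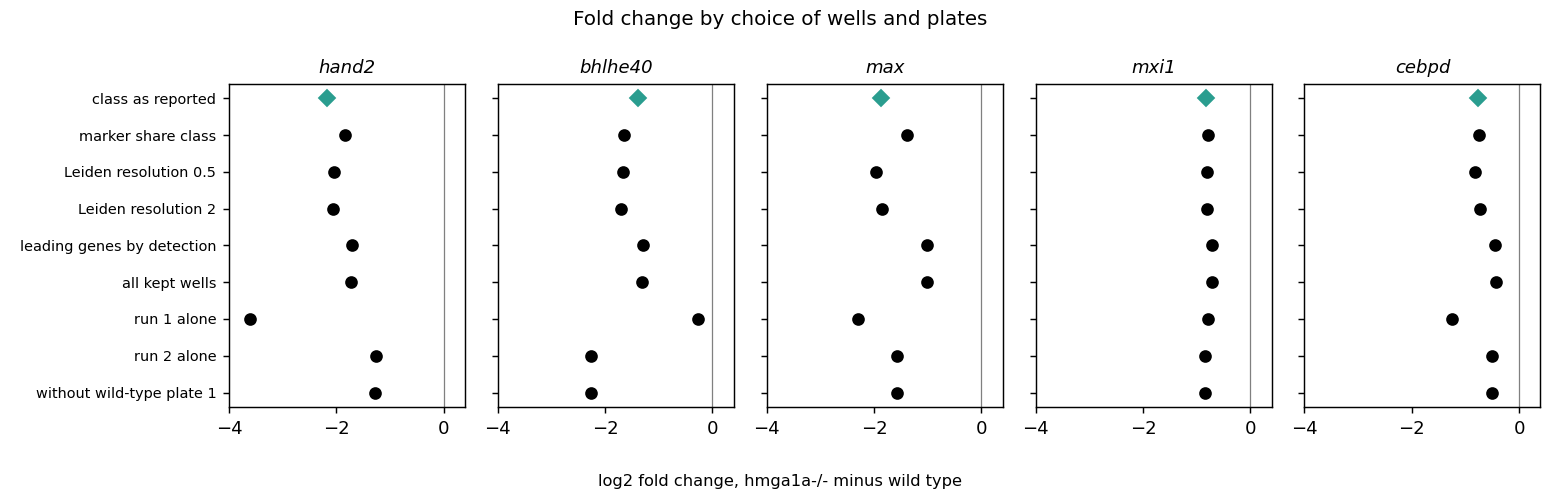
Log2 fold change of each gene, mutant minus wild type, refitted under 8 other choices of wells or plates (circles) beside the class as reported (diamond), with a line at 0. All points lie below 0, hand2 ranges from -3.61 in run 1 alone to -1.26 in run 2 alone, and mxi1 stays between -0.84 and -0.71.

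The plot of fold changes by choice shows that the size, though not the direction, of hand2, bhlhe40, max and cebpd depends on which wells and plates are used. Since the genes were chosen from this contrast, the constant direction is a description. For cebpd the fold change was -0.43 with all kept wells and, in an alternative not plotted, -1.70 with a minimum of 2000 transcripts. At the other end of the depth scale, wells of 900 to 1000 transcripts, just under the minimum, held 11 mxi1 and 4 cebpd transcripts and none of the other 3 genes in 52 wells. The 55 wells of 1000 to 1100 transcripts held 13 mxi1, 4 cebpd and 2 max transcripts.

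Each well also gives a readout that the choice of genes did not use, the nppa transcript itself. Wells with and without an nppa transcript after thinning were compared within plates by edgeR's quasi-likelihood test with the plate as block. None of 1339 genes passed a Benjamini-Hochberg adjusted p of 0.05 (0.0%), by edgeR or by DESeq2, and 62 had an unadjusted p under 0.05 by edgeR. The bhlhe40 level was higher in wells with nppa in 5 of 7 plates, with a log2 difference of 0.62 (95% interval -0.43 to 1.66, adjusted p = 0.997). For cebpd it was higher in 5 of 7 plates, with a difference of 0.40 (-0.38 to 1.17, adjusted p = 0.997). For mxi1 the difference was -0.11 (-0.74 to 0.51, adjusted p = 0.999), higher in 4 of 7. The intervals of bhlhe40 and cebpd still admit differences above 1 on the log2 scale. The counts of hand2 and max were too low for the filter. Without TMM factors, CPM were 45.96 ± 66.1 with and 50.5 ± 60.999 without nppa for hand2, and 39.01 ± 24.4 and 41.5 ± 47.7 for max (SD over 7 plates). No gene passed the test of whether the nppa difference differs between genotypes (0.0%; 34 at an unadjusted p under 0.05 by edgeR, with no other tool run). For bhlhe40, cebpd and mxi1 that interaction was 0.58 (SE 1.09), -0.42 (SE 0.82) and -0.07 (SE 0.65), each with an adjusted p of 0.986.

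**Figure D4:**
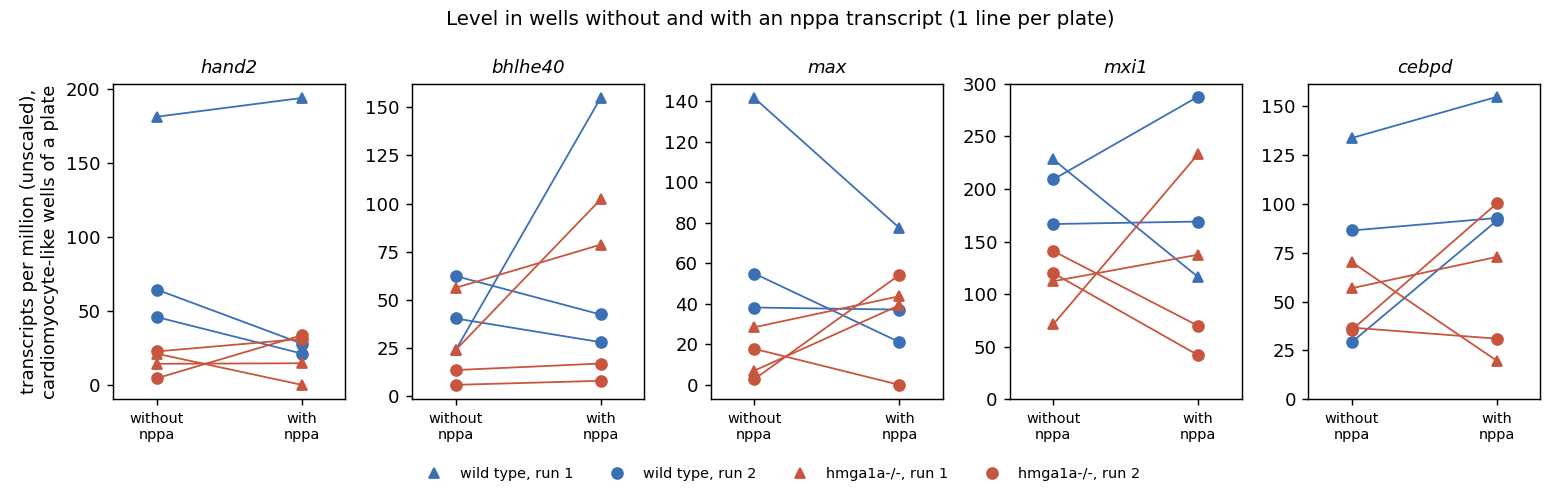
CPM without TMM factors of each gene in cardiomyocyte-like wells without and with an nppa transcript, 1 line per plate, coloured by genotype and marked by run. The lines of every gene run in both directions, and wild-type plate 1 is the top line for hand2.

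The lines in the plot by nppa class cross for all 5 genes, and many of the points rest on fewer than 10 transcripts.

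Other genes of the same pathways were read from 7 lists, with tests over all 2110 genes. The lists were written with earlier results of these data known, so a gene that passes does not speak for its list. In this fit 76 genes passed (3.6%), 32 lower (1.52%) and 44 higher (2.09%), with a median log2 fold change of 0.04 over all genes. Of 32 tested list genes other than the 5, 1 was lower and 1 was higher. The count of 76 depends on how the cardiomyocyte-like class was drawn. Where a cluster's leading genes were taken only among genes detected in 25% of its wells, the class held 966 wells and 14 genes passed, as many as with all kept wells (14 of 2798, 0.5%, 7 in each direction, 0.25%), and neither list gene was among them.

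Among the partners in the MYC network, the MYC row ENSDARG00000007241 was the only tested gene (-0.28, SE 0.75, adjusted p = 0.911), and the 10 rows that were not tested held 0 to 16 transcripts each in the class. Of 7 tested clock genes none passed. BHLHE41, the close relative of bhlhe40, stood at 34.9 to 53.3 CPM in wild-type and 18.5 to 64.3 CPM in mutant plates (log2 fold change -0.69, SE 0.51, adjusted p = 0.538). The clock kinase gene CSNK1D had 0.33 (SE 0.47) and the nuclear receptor gene NR1D2 0.25 (SE 0.61). The median over these 7 was 0.16.

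Of 9 tested cardiac transcription factor genes besides hand2, none passed, and 4 had a fold change above 0. MEF2A, a myocyte enhancer factor, stood at 197.4 to 224.3 CPM in wild-type and 175.3 to 454.2 CPM in mutant plates (0.64, SE 0.25, adjusted p = 0.172). It passed in 1 alternative, without mutant plate 2 (0.79, adjusted p = 0.0289), and adjusted p reached 0.850 in the others. The values were -0.93 (SE 0.56, adjusted p = 0.414) for GATA5, a zinc finger factor of early heart formation, and 1.09 (SE 0.63, adjusted p = 0.398) for the TEAD3 row ENSDARG00000063649. TCF12, a class I helix-loop-helix partner, was the only tested gene of its list (1.07, SE 0.65, adjusted p = 0.425), and the ID genes held at most 10 transcripts each. In the C/EBP list SOCS3 had 0.54 (SE 0.40) and atf4b -0.16 (SE 0.53), and neither passed.

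In the hypoxia list 1 of 6 tested genes fell. EGLN2, which codes for an oxygen-sensing prolyl hydroxylase, stood at 93.2, 112.9 and 69.9 CPM in wild-type plates and at 18.9, 41.2, 9.04 and 30.8 CPM in mutant plates. All 4 mutant plates were lower, a separation downwards that was seen for 6.59% of the 2110 genes. The log2 fold change was -2.04 (SE 0.46, edgeR adjusted p = 0.0110). EGLN2 would not have passed the low-count filter on its mutant plates alone, which limits what this p-value can say. The call was lost in 8 of 21 alternatives, and over the 21 the adjusted p lay between 0.000850 and 0.497. The plates whose removal ended the call were wild-type plate 1 (-2.28, adjusted p = 0.0593), wild-type plate 2 (-1.78, adjusted p = 0.0778) and mutant plate 3 (-1.61, adjusted p = 0.0670). With all kept wells it was -1.08 (adjusted p = 0.370). The BNIP3L row ENSDARG00000028067 had -0.55 (SE 0.22, adjusted p = 0.182), the glycolytic gene HK1 0.35 (SE 0.24) and the oxygen-regulated factor gene EPAS1 0.31 (SE 0.51), none past the threshold, and the median of the list was 0.24.

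In the glucocorticoid and FOXO list 1 of 6 tested genes rose. FKBP5, a co-chaperone of the glucocorticoid receptor and in mammals one of its targets, stood at 11.6, 95.7 and 76.9 CPM in wild-type plates and at 113.5, 216.5, 176.3 and 215.9 CPM in mutant plates. Every mutant plate was higher, and wild-type plate 1 was the lowest of all. How many of all genes separate upwards in this way was not computed, so nothing is read from that separation. The log2 fold change was 1.56 (SE 0.35, edgeR adjusted p = 0.0110). FKBP5 would not have passed the low-count filter on its wild-type plates alone, which limits this p-value in the same way. The call was lost in 7 of 22 alternatives, among them without wild-type plate 1 (1.16, adjusted p = 0.101), without mutant plate 4 (1.61, adjusted p = 0.0595) and with all kept wells (1.40, adjusted p = 0.0800). The paralogs foxo3a (-1.48, SE 0.59, adjusted p = 0.189) and foxo3b (0.61, SE 0.26, adjusted p = 0.215) had fold changes of opposite sign, and neither passed. In run 2 alone foxo3a passed, at -2.38 (adjusted p = 0.0487), and adjusted p reached 0.686 in its other alternatives. The muscle ubiquitin ligase gene trim63a had -0.51 (SE 0.27, adjusted p = 0.360).

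**Figure D5:**
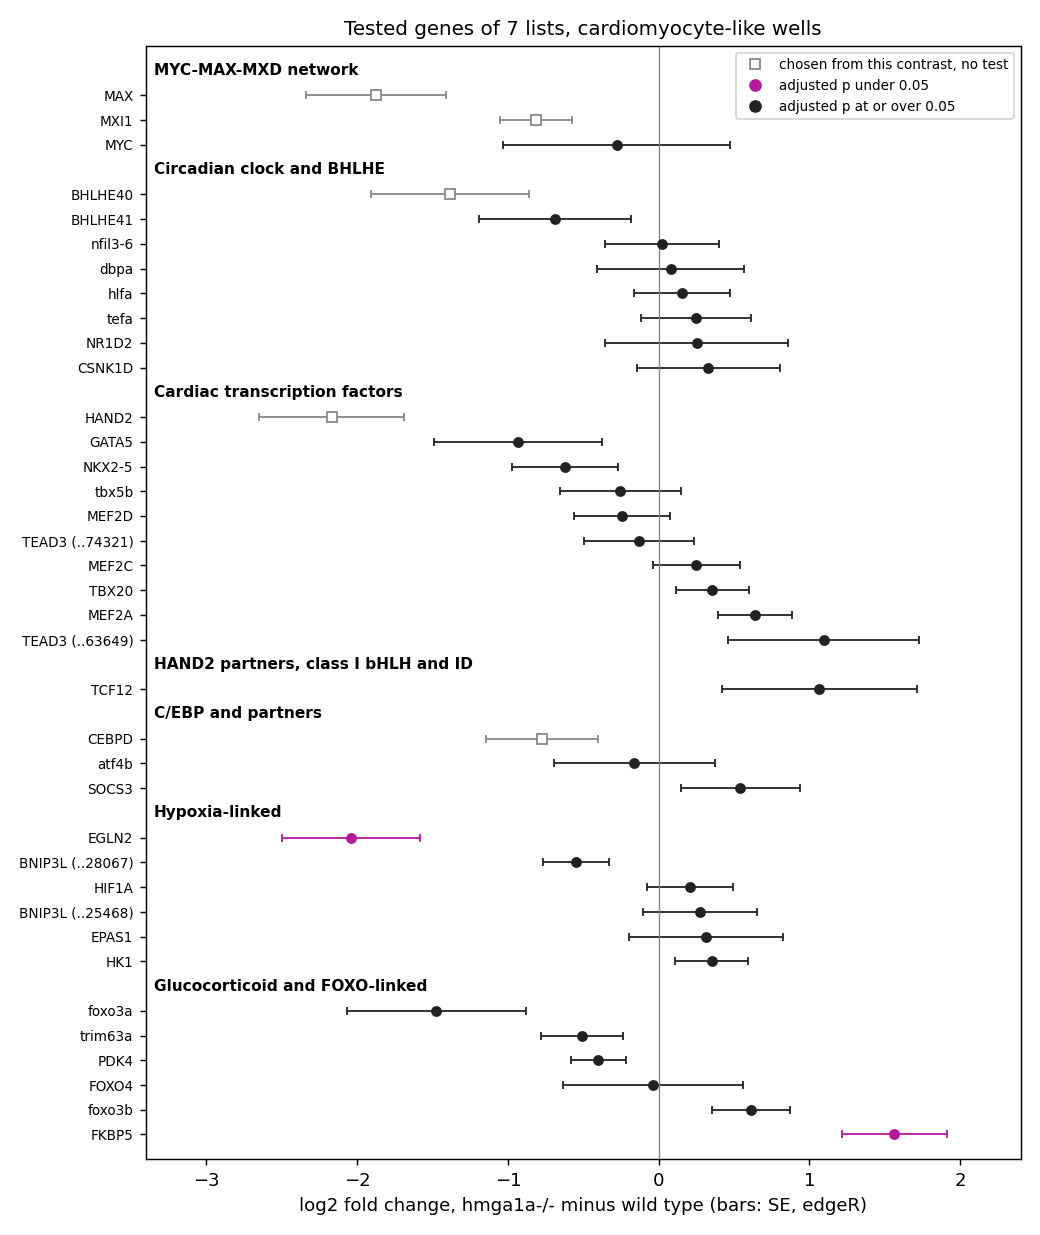
Log2 fold change, mutant minus wild type, with its SE, for every tested gene of the 7 lists in cardiomyocyte-like wells; open squares are the 5 chosen genes, which carry no test. EGLN2 (-2.04) and FKBP5 (1.56) are the coloured points past the threshold, and the other genes lie on both sides of 0.

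The plot of the lists places the 5 chosen genes beside genes of the same pathways, of which all but EGLN2 and FKBP5 missed the threshold with the class as reported.

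Over the 7 plates, the genes whose log2(CPM + 1) followed the 5 most closely were of mixed kinds. The closest were actc1c, an actin gene, for hand2 (Pearson r = 0.96), the unnamed ENSDARG00000088272 for bhlhe40 (0.94), atp5meb, an ATP synthase subunit gene, for max (0.98), ptp4a2b, a phosphatase gene, for mxi1 (0.98), and HYPK for cebpd (0.98). The next were PAQR9 and NDUFB1 for hand2, nmrk2 and RFXAP for max, cycsb and chchd6b for mxi1, and NDUFS5 and CDC42SE1 for cebpd, at r of 0.92 to 0.97, with ckmb, a muscle creatine kinase gene, at 0.95 for mxi1. For bhlhe40 they were ENSDARG00000090514, HPRT1 and fam32a at 0.92 to 0.93. Among the 5 themselves r was 0.88 for hand2 with max and 0.34 for hand2 with bhlhe40. These r values describe 7 plates of 2 genotypes, share genotype, run and plate depth, were picked from 2109 genes, and carry no test.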

How the data were processed

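For each gene and well the authors deposited an estimated count of transcripts from CEL-seq2 libraries with molecular barcodes (UMIs), per the labels' protocols. The submitters' processing notes name BWA 0.6.2, with genome build, annotation and the handling of multi-mapped reads not given in the sources used here. All of the 789903 values above 0 matched, within 0.0051, a whole UMI number corrected for saturation of 4096 barcodes, which is a 6-base UMI, while the labels' protocol gives 4 bases. The sorted colour is mCitrine in the series text and mCherry in the treatment protocol. The series text gives 768 cells per genotype, where the tables hold 384 wells for each of 3 and 4 plates. Gene names came from a table that covered 13087 of 16394 rows.

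Wells with at least 1000 transcripts outside spike-ins and mitochondrial genes (13 of 15 symbols matched) were kept and clustered without a doublet caller, since wells were sorted 1 cell each (scanpy 1.11.5 and leidenalg 0.10.2, with 2000 variable genes, 30 components, 15 neighbours and a resolution of 1). The cardiomyocyte-like class took clusters of at least 15 wells whose median share of marker transcripts reached 50% of the median over all kept wells, provided that markers of another type did not outnumber cardiomyocyte markers among the 10 leading genes. Clusters led by another type were split first. Mitochondrially encoded genes and hmga1a were left out of the clustering. The measure of leading genes was settled with the clusters in view but ahead of the gene tests, and 3 forms were tried. Fold over all genes was kept (905 wells). Taking only genes found in 25% of a cluster's wells gave 966 wells and is carried as an alternative, and the third form, with a lower share, left the same cluster whole.

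The sums per plate were rounded to whole counts and entered edgeR 4.0.16 (TMM, filterByExpr, quasi-likelihood F test, Benjamini-Hochberg over all tested genes) with the sequencing run, read from the flow cell, as covariate. Fold changes are mutant minus wild type. The nppa comparison used 2 sums per plate with the plate as block and left out nppa itself. DESeq2 1.42.0, limma-voom (limma 3.58.1) and other wells, filters and plates were alternatives. The genes and lists were chosen with earlier results of these data known. Named were the 5 genes, the list genes past the threshold, the 3 largest other fold changes per list, and 5 correlated genes per chosen gene, of which some are printed.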

Additional observations from a re-analysis of the deposited data

Results flagged for a closer look

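Among 33 groups of 4 mutant plates that were looked at, 5 held a plate far from the other 3. For independent, normal values chance gives about 1 in 20, but these groups share plates and genes. The 5 are therefore not weighed against that rate. The hand2 level was 27.1 CPM in mutant plate 3 and close to 15 CPM in the other mutant plates. BHLHE41 stood at 64.3 CPM in mutant plate 1, above its other plates. CSNK1D stood at 22.6 CPM in mutant plate 3, below the others. The atf4b level was 113.4 CPM in mutant plate 2, above the others. After thinning, bhlhe40 was found in 5.32% of cardiomyocyte-like wells of mutant plate 1, above the other mutant plates.

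Wells under the minimum of 1000 transcripts, used only in part and only in the alternative with a minimum of 500, also held transcripts of the 5 genes. They held 16 of hand2, 17 of bhlhe40, 14 of max, 60 of mxi1 and 25 of cebpd. Sums above 3 transcripts were flagged, which is no test of these counts.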

How the results depend on the processing

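Fold changes of the 5 genes stayed below 0 in every alternative run, 20 to 22 per gene in cardiomyocyte-like wells and 16 or 17 in all kept wells. The genes were chosen from this contrast and the alternatives reuse the same plates, so the constant sign is a description. In thinned cardiomyocyte-like wells hand2, bhlhe40 and max did not pass the low-count filter and have no value. The same holds for max with a minimum of 2000, and for hand2 and max in all kept wells when thinned. With cardiomyocyte-like wells the range was -3.61 to -1.26 for hand2, -2.88 to -0.27 for bhlhe40, -2.30 to -1.01 for max, -0.94 to -0.70 for mxi1 and -1.70 to -0.43 for cebpd. With all kept wells it was -2.12 to -1.48 for hand2, -1.71 to -0.86 for bhlhe40, -1.50 to -0.35 for max, -0.93 to -0.38 for mxi1 and -0.80 to -0.32 for cebpd. The count of 76 genes past the threshold in cardiomyocyte-like wells was 44 without the run covariate, 34 in run 2 alone, 35 with a minimum of 2000 transcripts, 14 in all kept wells and 14 with leading genes by detection, and 31 (without wild-type replicate 1) to 85 when a plate was left out. The count of 14 in all kept wells was 9 without the run covariate, 47 with DESeq2, 23 with limma-voom, 83 without a filter, 8 in run 1 alone, 29 in run 2 alone and 65 in thinned wells, and 7 (without wild-type replicate 1) to 20 when a plate was left out. The nppa comparison gave 35 genes without a filter, 2 in all kept wells and 2 with nppa read from unthinned wells, all lower in wells with nppa. The cause was not tested.

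The sign turned for some values that passed no test. MYC was 0.31 with a minimum of 500, 0.56 in all kept wells and 0.61 with leading genes by detection. NR1D2 was -0.33 with limma-voom and -0.41 in run 2 alone, and -0.42 to 0.84 when a plate was left out. EPAS1 was -0.32 in run 2 alone and -0.32 to 0.725 when a plate was left out. In run 1 alone BHLHE41 was 0.39, HK1 -0.059 and atf4b 0.79. With a minimum of 2000 CSNK1D was -0.015 and SOCS3 -0.11. The atf4b value was 0.24 without the run covariate, and -0.71 to 0.28 when a plate was left out. With nppa read from unthinned wells, the nppa difference of bhlhe40 was -0.033, and the interactions were -0.77 for bhlhe40, 0.097 for mxi1 and 0.12 for cebpd. Leaving out plates, the nppa difference of mxi1 ran from -0.38 to 0.059, and the interactions from -0.091 to 1.46 for bhlhe40, -0.74 to 0.32 for mxi1 and -1.02 to 0.056 for cebpd.

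No paired analysis was possible because the labels give no replicate numbers. The planned promoter motif count was not run, since no promoter sequence was used here. With 3 to 12 transcripts of hand2 in a mutant plate, depth limits how well its level is known. Run 1 alone has a single wild-type plate, assumed to vary like the mutant plates.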
